A study of Rattus norvegicus with 15 samples.

Results

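The miR-9 family was followed across 3 dietary salt contents in the cystic kidney cortex of the PCK rat. Its members were taken by name, as every row of the deposited count table whose rat name begins miR-9a- or miR-9b-. This gave 3 of 600 names: rno-miR-9a-5p, rno-miR-9a-3p and rno-miR-9b-3p, written below without the species prefix. All 3 were among the 519 names that passed the filter on low counts. miR-9a-5p is the miRNA that the study itself singles out, so its place here is not independent of these data.

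All animals were of the strain PCK/CrljCrlPkhd1pck/CRL, which carries a mutation in Pkhd1, the gene of human autosomal recessive polycystic kidney disease. No strain without that mutation is among the groups. The rats were 6 weeks old when put on Dyets chow with 0.01%, 0.4% or 4% NaCl, and stayed on it for 8 weeks with no other treatment. Total RNA from frozen renal cortex gave 15 small RNA libraries, 5 per diet, and libraries are numbered 1 to 5 within a diet only as names. Per the protocol in the labels, each library pooled 2 to 3 rats and a condition had 2 pools, whereas 5 libraries per diet are listed, so libraries of a diet may share animals. The p-values therefore measure the spread between libraries, which may be technical.

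A miRNA is cut from a hairpin precursor whose arms give a 5p and a 3p strand. In most hairpins one strand is kept by an Argonaute protein and guides it to mRNAs, mainly through its seed, bases 2 to 8, while the other strand is largely degraded. miR-9 is best known from the developing brain, where it acts on neural progenitors, and its sequence is highly conserved among animals.

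The mature sequences are shown because their relation bears on how the counts can be read. They are from RefSeq on GRCr8, printed 5′ to 3′ with the seed in capitals:
miR-9a-5p: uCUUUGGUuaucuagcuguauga
miR-9a-3p: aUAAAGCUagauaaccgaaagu
miR-9b-3p: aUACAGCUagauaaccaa

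The seeds of the 3 names differ from each other, and no other rat name in the table with a RefSeq sequence shares any of them. RefSeq places the same miR-9a strands in 3 hairpins, so reads of miR-9a-5p or miR-9a-3p cannot be assigned to one gene. On the plus strand of chromosome 1, miR-9a-5p lies at chr1:142849415-142849437 in Mir9-3, inside the lncRNA gene Mir9-3hg. On chromosome 2 it lies at chr2:15933307-15933329 in Mir9-2, inside the host gene Mir9-2hg, and at chr2:175974986-175975008 in Mir9-1, inside the lncRNA gene LOC100911992. The Mir9-3 hairpin is printed with both mature arms in capitals, to show how the strands face each other across the loop:
Mir9-3: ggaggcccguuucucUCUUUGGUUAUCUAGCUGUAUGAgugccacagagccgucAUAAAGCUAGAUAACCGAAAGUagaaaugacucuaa

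miR-9b-3p comes from the other DNA strand of the same places. RefSeq gives it on the minus strand at chr1:142849418-142849435 and chr2:15933310-15933327, within the coordinates of miR-9a-5p. All 18 of its bases are the reverse complement of bases 4 to 21 of miR-9a-5p, which are in capitals here:
miR-9a-5p: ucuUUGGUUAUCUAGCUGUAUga
miR-9b-3p reversed and complemented: UUGGUUAUCUAGCUGUAU

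miR-9a-3p and miR-9b-3p, read in the same direction, share a run of 12 bases. Reads and their strand were not inspected, so the table does not tell a transcript of the opposite DNA strand from miR-9a-5p reads counted under the complementary name. The 2 names are therefore not treated below as separate evidence.

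Libraries held 4.17 to 7.83 M counted reads. The most deeply read were on 0.01% NaCl (5.77 to 7.83 M), followed by 0.4% (4.79 to 7.38 M) and 4% (4.17 to 5.42 M). TMM factors, which correct for differences in composition between libraries, were 0.781 to 1.01, 0.922 to 1.15 and 1.03 to 1.11 in the same order. Levels are given as counts-per-million values (scaled CPM), with the library total multiplied by its TMM factor. The kidney label was checked with miR-10a-5p, miR-192-5p, miR-194-5p, miR-204-5p, miR-30a-5p and miR-200b-3p, all of which were found. Their summed level was 270643 to 655510 scaled CPM over all libraries. Most of this sum was miR-10a-5p, with means of 354508, 243454 and 232795 scaled CPM on 0.01%, 0.4% and 4% NaCl.

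miR-9a-5p, the strand that carries the known miR-9 seed, was the most abundant of the family and was highest on the salt-deficient diet. On 0.01% NaCl its level was 567, 468, 470, 251.6 and 469 scaled CPM in libraries 1 to 5. On 0.4% NaCl it was 262, 195, 242, 153 and 85.5 scaled CPM. On 4% NaCl it was 160, 180, 266, 189 and 151 scaled CPM. On 0.01% NaCl, 4 of 5 libraries lay above every library of the other diets, while library 4 lay below the highest library of each. Library 5 on 0.4% was the lowest of all 15, with 526 reads of miR-9a-5p, and the deepest count was 2961 reads in library 1 on 0.01%.

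**Figure D1:**
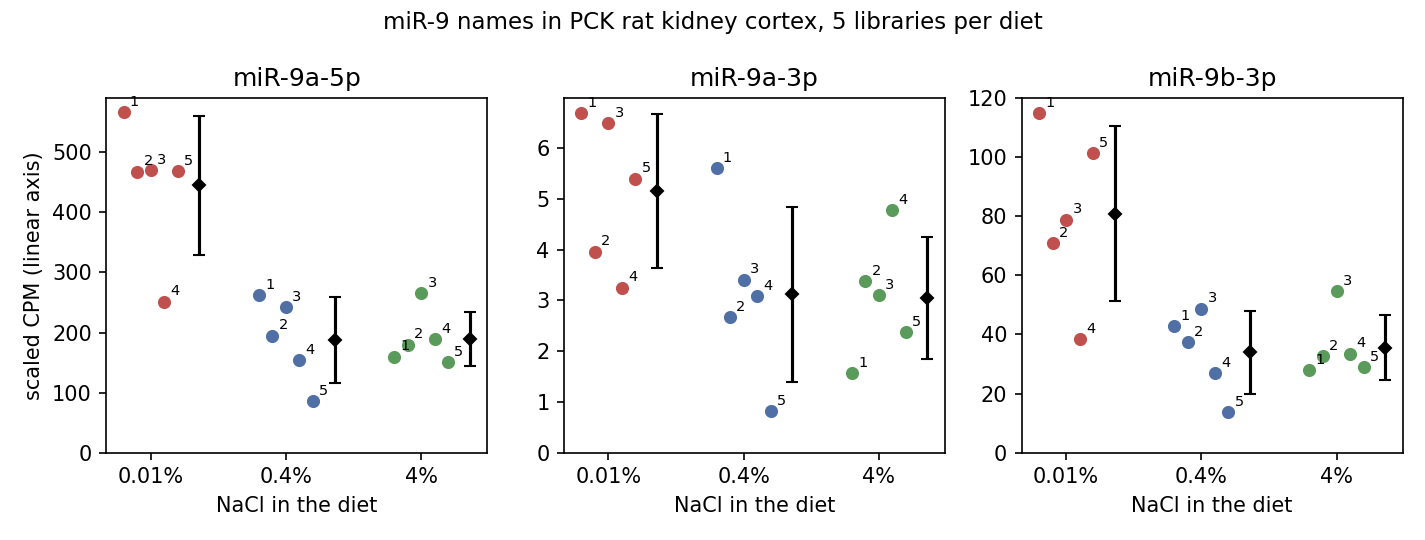
Scaled CPM (linear axes from 0) of miR-9a-5p, miR-9a-3p and miR-9b-3p by NaCl content of the diet; each numbered point is a library and diamonds with bars are means ± SD of 5. For miR-9a-5p and miR-9b-3p, 4 of 5 libraries on 0.01% NaCl lie above all others, and library 4 on 0.01% and library 5 on 0.4% are the lowest of their diets for all 3 names.

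Mean levels of miR-9a-5p were 445 ± 116 scaled CPM on 0.01% NaCl, 188 ± 71.1 on 0.4% and 189 ± 45.5 on 4% (SD, n = 5 each). The order was thus 0.01%, then 4% and 0.4%, and the last pair did not differ beyond their spread. Against 0.4% NaCl the level on 0.01% was 2.37-fold higher (95% interval 1.57 to 3.59; log2 fold change 1.25 ± 0.27 SE; edgeR's quasi-likelihood F-test, p adjusted by Benjamini-Hochberg = 0.00513). Against 4% NaCl it was 2.35-fold higher (1.56 to 3.56; log2 fold change 1.24 ± 0.27; edgeR adjusted p = 0.00692). Both comparisons share the libraries on 0.01% NaCl. On library totals alone, without TMM scaling, miR-9a-5p was 254 to 513 CPM on 0.01% NaCl, 94.5 to 242 on 0.4% and 155 to 277 on 4%, so library 4 then lay just above all libraries on 0.4% and still within the range of 4%.

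Between 4% and 0.4% NaCl the ratio of miR-9a-5p was 1.01 (95% interval 0.669 to 1.52; log2 fold change 0.010 ± 0.27; edgeR adjusted p = 0.996). The interval holds changes in either direction, so the test does not show that the levels are alike. The sign of this value changed with the scaling, and it has no direction to report.

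miR-9b-3p, the name given to the sequence of the opposite strand, followed miR-9a-5p from library to library at a lower level. Its level was 115, 71.0, 78.9, 38.4 and 101 scaled CPM in libraries 1 to 5 on 0.01% NaCl. It was 42.9, 37.4, 48.8, 26.8 and 13.7 scaled CPM on 0.4%. It was 27.98, 32.7, 54.7, 33.5 and 28.9 scaled CPM on 4%. The overlap was the same as for miR-9a-5p, with library 4 on 0.01% NaCl inside the range of both other diets.

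Mean levels of miR-9b-3p were 80.9 ± 29.5 scaled CPM on 0.01% NaCl, 33.9 ± 13.9 on 0.4% and 35.6 ± 10.9 on 4% (SD, n = 5 each). It was 2.39-fold higher on 0.01% than on 0.4% NaCl (95% interval 1.45 to 3.92; log2 fold change 1.26 ± 0.33; edgeR adjusted p = 0.0128). It was 2.27-fold higher than on 4% NaCl (1.39 to 3.74; log2 fold change 1.19 ± 0.33; edgeR adjusted p = 0.0193), a call that ended without library 1 (edgeR adjusted p = 0.0612) or library 5 (edgeR adjusted p = 0.0503) on 0.01% NaCl. The ratio of 4% to 0.4% NaCl was 1.05 (0.641 to 1.72; log2 fold change 0.070 ± 0.33; edgeR adjusted p = 0.996).

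miR-9a-3p, the opposite arm of the miR-9a hairpins, was scarce. It had 35, 23, 39, 21 and 33 reads in libraries 1 to 5 on 0.01% NaCl, 31, 20, 17, 17 and 5 on 0.4%, and 9, 20, 17, 22 and 11 on 4%. At such depth the counts themselves are imprecise: 5 reads have an exact 95% Poisson interval of 1.62 to 11.7 and 39 reads one of 27.7 to 53.3, for counting error only. Mean levels were 5.16 ± 1.52 scaled CPM on 0.01% NaCl, 3.12 ± 1.72 on 0.4% and 3.04 ± 1.20 on 4% (SD, n = 5 each), and the diets overlapped.

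None of the comparisons of miR-9a-3p passed the test. The ratio of 0.01% to 0.4% NaCl was 1.66 (95% interval 0.928 to 2.97; log2 fold change 0.73 ± 0.38; edgeR adjusted p = 0.202). That of 0.01% to 4% was 1.69 (0.943 to 3.04; log2 fold change 0.76 ± 0.39; edgeR adjusted p = 0.169). That of 4% to 0.4% was 0.979 (0.536 to 1.79; log2 fold change -0.030 ± 0.40; edgeR adjusted p = 0.996). The 2 intervals against 0.01% NaCl hold both no change and the fold changes of miR-9a-5p.

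**Figure D2:**
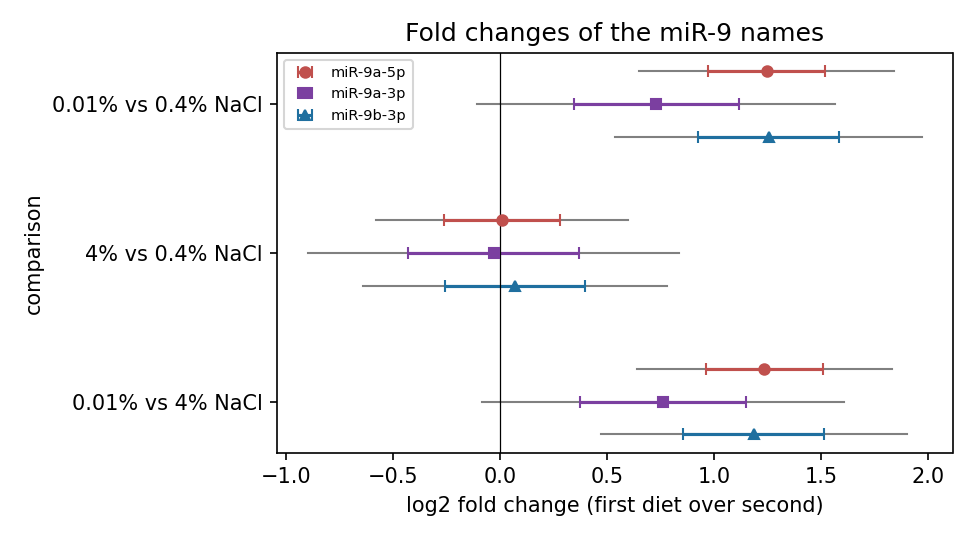
Log2 fold changes of the 3 miR-9 names (first diet over second) in the 3 pairwise comparisons; symbols are edgeR estimates, coloured bars are ± SE and grey lines are 95% intervals. miR-9a-5p and miR-9b-3p lie between 1.19 and 1.26 in both comparisons with 0.01% NaCl, and all 3 names lie between -0.030 and 0.070 between 4% and 0.4% NaCl.

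Against all names, 2 of the 3 miR-9 names were called higher on 0.01% than on 0.4% NaCl, where 7.71% of 519 names were called higher, 9.06% lower and 16.8% in either direction. On 0.01% against 4% NaCl the same 2 were called higher, against 7.32% of all names higher, 13.1% lower and 20.4% in either direction. Between 4% and 0.4% NaCl edgeR called 0 of 519 names (0%), as did DESeq2 and limma-voom, with 27 at an unadjusted p under 0.05. As the called names are complementary over the whole of the shorter one, they are not separate counts against this background. On library totals without TMM scaling the median log2 fold change of all names moved from -0.0027 to -0.19 on 0.01% against 0.4% NaCl, and the calls went from 40 higher and 47 lower to 25 higher and 79 lower. Against 4% NaCl they went from 38 higher and 68 lower to 14 higher and 117 lower, and miR-9a-5p was called higher in both comparisons under either scaling. No miR-9 name had libraries that did not overlap between 0.01% and 0.4% NaCl, where this held for 14.5% of all names. It also held for none of them between 0.01% and 4% NaCl (14.6% of all names) or between 4% and 0.4% (0.771%).

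Ordered from the largest rise on 0.01% over 0.4% NaCl downwards, miR-9b-3p and miR-9a-5p held places 7 and 8 among all 519 names. On that order miR-9a-3p held place 41. By size in either direction, the places of miR-9b-3p, miR-9a-5p and miR-9a-3p were 42, 43 and 106. The median log2 fold change of all names was -0.0027 in this comparison.

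**Figure D3:**
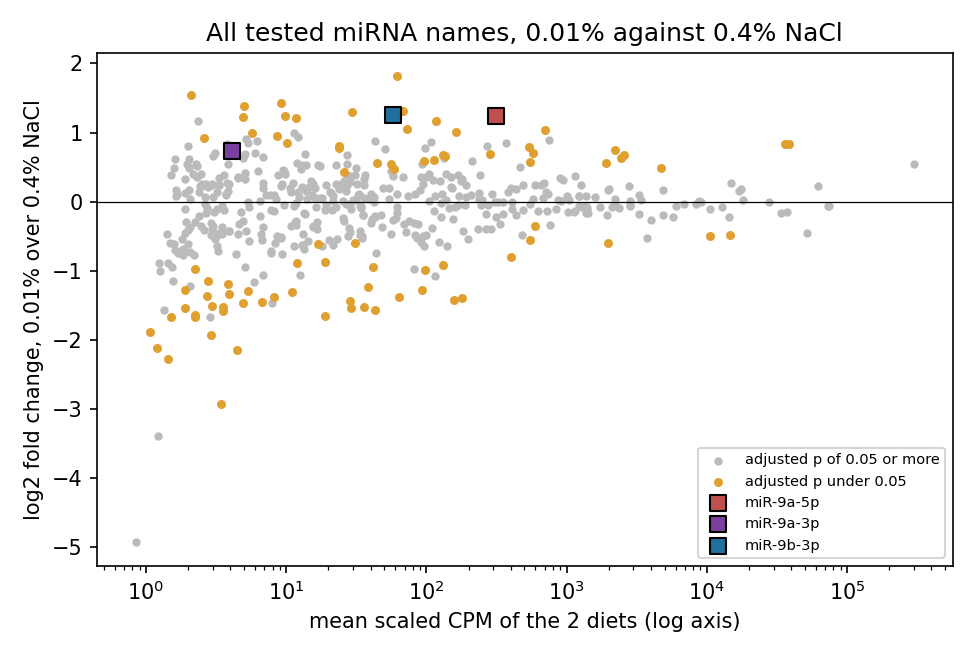
Log2 fold change on 0.01% over 0.4% NaCl against the mean scaled CPM of these diets (log axis) for 519 names; orange points have an adjusted p under 0.05 and squares are the miR-9 names. miR-9a-5p and miR-9b-3p lie at 1.25 and 1.26 among the called names, and miR-9a-3p lies at 0.73 among names not called.

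A joint test of any difference among the 3 diets gave an edgeR adjusted p of 0.00450 for miR-9a-5p, 0.0129 for miR-9b-3p and 0.239 for miR-9a-3p, and called 16.4% of all names. The joint call of miR-9b-3p ended without library 1 (edgeR adjusted p = 0.0609) or library 5 (edgeR adjusted p = 0.0512) on 0.01% NaCl. A slope over the order of the 3 salt contents was -0.62 ± 0.15 log2 units per step for miR-9a-5p (edgeR adjusted p = 0.0203), where 15.6% of all names were called and 5.59% with a falling slope. That slope lost its call without library 1 on 0.01% NaCl (edgeR adjusted p = 0.0587), where the names called fell from 81 to 17 and those with a falling slope from 29 to 4. Without library 2, 3 or 5 on 0.01% NaCl or library 5 on 4%, 28 to 32 names were called and miR-9a-5p remained among them (edgeR adjusted p = 0.0410 to 0.0497). As the levels on 0.4% and 4% NaCl lay within each other's spread, the slope alone does not show a graded fall.

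In the authors' deposited tables the fold changes carry the opposite sign, the second diet over the first. This held for all 163, 185 and 27 names with an unadjusted p under 0.05 on 0.01% against 0.4%, 0.01% against 4% and 4% against 0.4% NaCl. For 0.01% and 0.4% NaCl the authors' deposited table gives miR-9a-5p a log2 fold change of -1.01 (adjusted p = 0.000843) by DESeq2 and -1.27 (adjusted p = 0.0114) by edgeR. For miR-9b-3p the authors' deposited table gives -0.95 (adjusted p = 0.00466) and -1.28 (adjusted p = 0.0270). For miR-9a-3p the authors' deposited table gives -0.50 (adjusted p = 0.285) and -0.76 (adjusted p = 0.258), so the same 2 names lie below 0.05 there. For 4% and 0.4% NaCl the authors' deposited table gives miR-9a-5p 0.0093 by DESeq2 and 0.028 by edgeR (adjusted p = 0.992 and 0.984), which is lower on 4% NaCl where the value above was higher, and neither was called.

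Within the family, shares of reads were close in the 3 diets. miR-9a-5p held 84.1 ± 2.10% of the family's reads on 0.01% NaCl, 83.8 ± 1.26% on 0.4% and 83.2 ± 0.816% on 4% (SD, n = 5 each). miR-9b-3p held 14.9 ± 2.10%, 14.9 ± 1.28% and 15.5 ± 0.910% in the same order, and miR-9a-3p 0.984 ± 0.171%, 1.32 ± 0.413% and 1.35 ± 0.511%. The family as a whole made up 0.0478 ± 0.0121% of counted reads on 0.01% NaCl, 0.0226 ± 0.00719% on 0.4% and 0.0244 ± 0.00574% on 4%. By rank among the 600 names, miR-9a-5p stood between places 88 and 115 on 0.01% NaCl, 112 and 168 on 0.4%, and 113 and 143 on 4%.

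The arms of miR-9a were unequal in every library. There were 39.5 to 118 reads of the 5p arm per read of the 3p arm, and the mean log2 ratio of 6.13 was the 21st highest of 107 rat miRNAs with both arms counted at a mean of at least 10 reads. The log2 ratio was 6.41 on 0.01% NaCl, 5.99 on 0.4% and 5.97 on 4%. The difference of 0.01% minus 0.4% was 0.42 ± 0.25 (95% interval -0.14 to 0.97; limma, Benjamini-Hochberg adjusted p = 0.691) and that of 0.01% minus 4% was 0.44 ± 0.25 (-0.12 to 0.99; limma adjusted p = 0.349). Neither passed, and 0 of 107 miRNAs (0%) passed in the first comparison, with 7 at an unadjusted p under 0.05, and 1.87% in the second. Between 4% and 0.4% NaCl the difference was -0.021 ± 0.25 (-0.58 to 0.53; limma adjusted p = 0.997), with 0% called and 5 at an unadjusted p under 0.05. The ratio needs no scaling between libraries, and the few 3p reads limit its precision. They are not all of its spread, which was 2.04 times what counting alone would give (chi-square per degree of freedom).

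The ratio of miR-9a-5p to miR-9b-3p, the complementary names, was 4.63 to 6.59 over the 15 libraries. Its mean was 5.73 ± 0.912 on 0.01% NaCl, 5.66 ± 0.559 on 0.4% and 5.39 ± 0.348 on 4% (SD, n = 5 each). No pair of diets passed the test on this ratio, with differences in mean log2 ratio of 0.012, -0.067 and 0.079 for 0.01% minus 0.4%, 4% minus 0.4% and 0.01% minus 4% (exact two-sided permutation tests, adjusted p = 0.921, 0.75 and 0.75 over 6 tests). The remaining 3 of those tests, on miR-9a-3p over miR-9b-3p, gave adjusted p of 0.619, 0.921 and 0.619 by the same exact permutation test, where the smallest p possible is 0.00794.

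**Figure D4:**
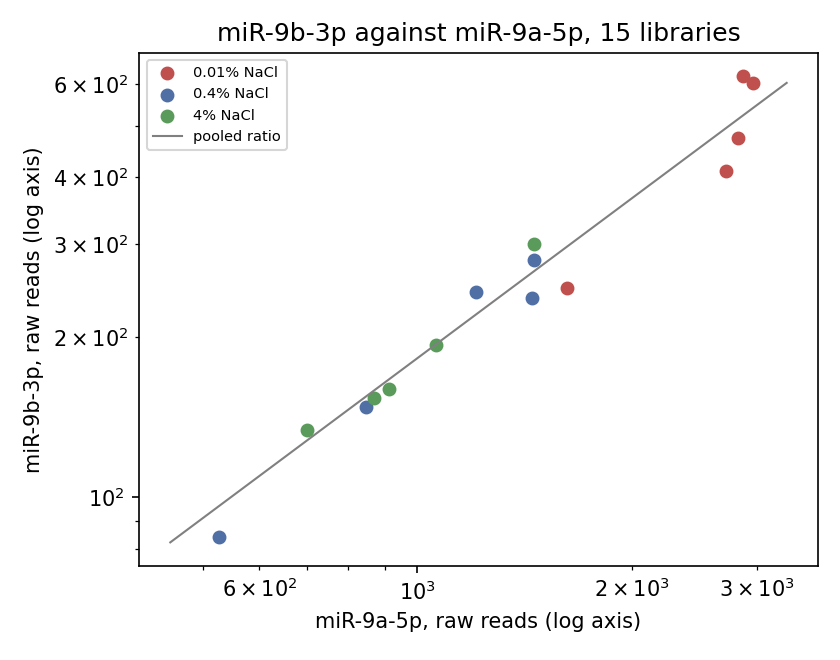
Raw reads of miR-9b-3p against miR-9a-5p in 15 libraries (log axes), coloured by NaCl content of the diet; the line is the pooled ratio of 18.3 reads of miR-9b-3p per 100 reads of miR-9a-5p. Points of all 3 diets lie along the line.

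As a description over the 15 libraries, log2 levels of miR-9a-5p and miR-9b-3p had a Pearson r of 0.98, and 0.97 once the diet means were removed. For miR-9a-5p and miR-9a-3p these values were 0.84 and 0.81. The points share library depth and scaling. The split of reads between miR-9a-5p and miR-9b-3p varied 3.78 times as much as counting alone would give (chi-square per degree of freedom), and that between miR-9a-5p and miR-9a-3p 2.04 times.

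Complementary names were common in the table. Of its 445 rat rows, 403 matched a RefSeq mature sequence by name. Among these, 34 pairs of rows had at least 16 consecutive complementary bases, miR-9a-5p and miR-9b-3p among them. In 25 pairs all bases of the shorter name were covered. The smaller name of a pair held 0.0350% to 99.7% of the reads of the larger, and 18.3% for the miR-9 pair. For example, let-7d-5p and miR-3596b had 101107 and 89892 reads, and their log2 ratio had an SD of 0.014 over the libraries, whereas the SD was 0.16 for the miR-9 pair. This SD was lower than that of the miR-9 pair in 17 of the 33 other pairs, and the smaller name's share was above that of the miR-9 pair in 22 of them. Whether reads of one strand were counted under the other name was not tested.

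**Figure D5:**
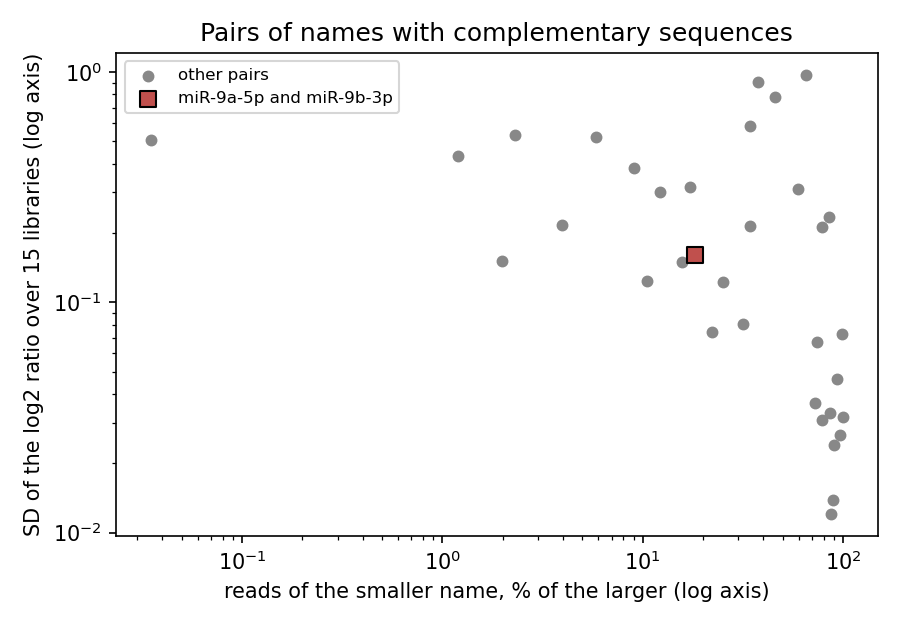
SD over 15 libraries of the log2 ratio of 2 names (log axis) against the reads of the smaller name as a percentage of the larger (log axis), for 34 pairs of names with complementary sequences. The miR-9 pair (square) lies at 18.3% and 0.16.

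The names whose levels went most like miR-9a-5p were sought by Pearson r of log2 scaled CPM over the 15 libraries, among 206 names with a mean of at least 50 scaled CPM. The quartiles of these r were -0.44 and 0.60, with a median of 0.023. The 6 highest were miR-141-3p (r = 0.97) and miR-200c-3p (0.96), members of the epithelial miR-200 family, then miR-181c-5p (0.96), miR-181c-3p (0.93), the row of the insect name dme-miR-10-3p (0.90) and miR-181d-5p (0.90). With diet means removed, r was 0.93 for miR-141-3p, 0.90 for miR-181c-5p and 0.89 for miR-200c-3p, which were then the 3 highest. It was 0.79 for miR-181c-3p, 0.75 for dme-miR-10-3p and 0.69 for miR-181d-5p. These values are descriptions over libraries that share depth and scaling.

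Each of the 6 rose on 0.01% NaCl against 0.4%. miR-141-3p went from 459 ± 128 to 942 ± 203 scaled CPM (log2 fold change 1.04 ± 0.20, edgeR adjusted p = 0.00279) and miR-200c-3p from 71.6 ± 22.4 to 161 ± 45.6 (1.17 ± 0.24, edgeR adjusted p = 0.00303; SD, n = 5 each). The log2 fold changes of the other 4 were 0.48 to 0.68. As the 6 were chosen by a likeness that includes the step between diets, their rise is not separate evidence. The calls did not extend to all of the miR-200 family. In the joint test of the diets the edgeR adjusted p was 0.369 for miR-429, 0.871 for miR-200b-3p and 0.712 for miR-200a-3p. Of the 5p arms, miR-141-5p was called in that test (edgeR adjusted p = 0.00420). The arms miR-200a-5p and miR-200b-5p were not (edgeR adjusted p = 0.572 and 0.871). On 0.01% against 0.4% NaCl, miR-200b-3p had a log2 fold change of 0.036 ± 0.093 (edgeR adjusted p = 0.807).

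The 3 names that ran most opposite to miR-9a-5p were miR-541-5p (r = -0.93), miR-29c-3p (-0.88) and miR-411-5p (-0.85). They too were chosen by an r that includes the step between diets, so their falls on 0.01% NaCl are not separate evidence. miR-541-5p fell from 261 ± 99.1 to 99.1 ± 32.5 scaled CPM between 0.4% and 0.01% NaCl (log2 fold change -1.40 ± 0.27, edgeR adjusted p = 0.00279). miR-29c-3p, of a family known to act on collagen mRNAs, fell from 656 ± 147 to 445 ± 23.8 (-0.56 ± 0.14, edgeR adjusted p = 0.00972). Of the same family, miR-29a-3p and miR-29b-3p were not called in the joint test of the diets (edgeR adjusted p = 0.530 and 0.391).

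Of 20 miRNAs listed as known from neural tissue, 14 were matched to a row and 13 were tested. On 0.01% against 0.4% NaCl 1 of the 13 was called higher and none lower, near the 7.71% of all names called higher, and the median log2 fold change was -0.043, against -0.0027 for all names. The member called was miR-181c-5p, which is also expressed outside the nervous system, at 2285 ± 304 against 1556 ± 329 scaled CPM (log2 fold change 0.55 ± 0.14, edgeR adjusted p = 0.0117). The summed level of the list was 2690 to 3450 scaled CPM on 0.01% NaCl, 1995 to 2723 on 0.4% and 1992 to 2722 on 4%, and miR-181c-5p made up most of it.

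Among the members chosen to define neural tissue, miR-219a-2-3p had 103 reads over all 15 libraries, with 0 to 32 per library. Its means were 0.0327 ± 0.0732, 1.67 ± 2.47 and 1.98 ± 1.93 scaled CPM on 0.01%, 0.4% and 4% NaCl (SD, n = 5 each), so its tests rest on few reads. Its difference did not pass between 0.01% and 0.4% NaCl (edgeR adjusted p = 0.0633) and passed between 0.01% and 4% (edgeR adjusted p = 0.0426). miR-138-5p stood at 26.6 ± 6.76, 22.3 ± 5.14 and 28.6 ± 2.46 scaled CPM in the same order. miR-124-3p was not analysed here. The highest log2 fold changes in the list on 0.01% against 0.4% NaCl were those of miR-212-3p (0.99 ± 0.40) and miR-132-3p (0.87 ± 0.37), named after their values were seen, and neither passed (edgeR adjusted p = 0.0977 and 0.111). Of the other abundant members, miR-218a-5p had a log2 fold change of -0.40 ± 0.16, miR-34c-5p 0.81 ± 0.29 and miR-128-3p -0.043 ± 0.21 on 0.01% against 0.4% NaCl, and none passed (edgeR adjusted p = 0.0977, 0.0650 and 0.897).

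Of 21 miRNAs listed as reported to act on sodium transporters, renin or aldosterone, 16 were matched to a row and 15 were tested. On 0.01% against 0.4% NaCl 1 rose and 2 fell, a share near the 16.8% of all names called in either direction, with a median log2 fold change of 0.21 against -0.0027 for all names. The riser was miR-21-5p (0.83 ± 0.26, edgeR adjusted p = 0.0362), and those that fell were miR-194-5p (-0.60 ± 0.14, edgeR adjusted p = 0.00653) and miR-335 (-1.38 ± 0.26, edgeR adjusted p = 0.00245). The other abundant members, miR-30a-5p (0.23 ± 0.12), miR-192-5p (-0.45 ± 0.18) and miR-181a-5p (0.16 ± 0.098), did not pass (edgeR adjusted p = 0.190, 0.0911 and 0.286). On 0.01% against 4% NaCl, 2 of the 15 tested members of this list rose and 3 fell. Of the 13 tested in the neural list, 1 rose and 1 fell. Of all names, 7.32% were called higher and 13.1% lower in that comparison. Between 4% and 0.4% NaCl none of either list was called.

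Among the markers of cell types other than kidney cortex and neural tissue, those called on 0.01% against 0.4% NaCl were of smooth muscle and fibroblasts. Of these 6 miRNAs, 4 were higher on 0.01% NaCl and none lower, where 7.71% of all names were called higher. They were miR-143-3p (log2 fold change 0.83 ± 0.18, edgeR adjusted p = 0.00513), miR-199a-5p (0.71 ± 0.23, edgeR adjusted p = 0.0405), miR-199a-3p (0.64 ± 0.18, edgeR adjusted p = 0.0187) and miR-145-3p (0.58 ± 0.18, edgeR adjusted p = 0.0345). Against 4% NaCl 2 of the 6 were called higher, miR-143-3p and miR-145-3p, where 7.32% of all names were. As miR-199a-5p and miR-199a-3p are arms of the same miRNA, and miR-143 and miR-145 form a cluster, these calls are not separate counts against the background. The summed level was 44116 to 76339 scaled CPM on 0.01% NaCl, 21034 to 38589 on 0.4% and 25774 to 32959 on 4%, nearly all of it miR-143-3p. Without miR-143-3p the sum was 4120 to 5144 scaled CPM on 0.01% NaCl, 2344 to 3138 on 0.4% and 2092 to 4664 on 4%, so that 0.01% and 4% overlapped. No immune (of 6), endothelial (of 4), red blood cell (of 2) or striated muscle (of 2) marker tested was called on 0.01% against 0.4% NaCl. Against 4% NaCl 1 of the 6 immune markers was called lower, where 13.1% of all names were. In bulk tissue more cells of a type and more of a miRNA per cell cannot be told apart. The part of cell makeup in the levels of miR-9 was not tested.

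Library 4 on 0.01% NaCl and library 5 on 0.4%, the lowest of their diets for miR-9a-5p, also had the largest share of reads under names of other species in their diets, 13.5% and 15.8%. The range was 8.05% to 13.5% on 0.01% NaCl, 11.1% to 15.8% on 0.4% and 14.0% to 14.3% on 4%, and the part of this share in the result was not tested. Without these and the corresponding library on 4% NaCl, an alternative chosen after seeing the data, the log2 fold change of miR-9a-5p on 0.01% over 0.4% NaCl was 1.20 ± 0.21 (edgeR adjusted p = 0.00333), and on 0.01% over 4% it was 1.35 ± 0.21 (edgeR adjusted p = 0.00186). With the reads of miR-9b-3p added to those of miR-9a-5p, also chosen after seeing the data, the values were 1.25 ± 0.28 (edgeR adjusted p = 0.00547) and 1.23 ± 0.28 (edgeR adjusted p = 0.00776). Leaving out any single library kept miR-9a-5p called in both comparisons, with log2 fold changes of 1.04 to 1.38 against 0.4% and 1.10 to 1.38 against 4% NaCl.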

How the data were processed

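Small RNA libraries were made with the TruSeq small RNA kit and run on an Illumina HiSeq sequencer according to the labels' protocols. Of the software, cutadapt, Bowtie and DESeq are listed in the submitters' processing notes. Not given in the sources used here: genome build, reference set of miRNAs, and how reads that match more than one name were counted. The authors deposited raw counts per mature miRNA name for 15 libraries, 445 rat names and 155 names of other species. The authors' deposited comparison tables hold log2 fold changes and p-values, of which only those of the miR-9 names were copied as values. For names with an unadjusted p under 0.05 in the edgeR fits, the sign of the authors' fold change was also read. A further 90 per-sample columns in those tables were not used, nor were 3 sheets of DESeq results.

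Counts were tested with edgeR 4.0.16 in R 4.3.3: TMM scaling, filterByExpr by diet, robust quasi-likelihood fits over all 15 libraries, and Benjamini-Hochberg adjustment over 519 names. An adjusted p under 0.05 was called. SE was the log2 fold change divided by the square root of F, and intervals used 12 residual degrees of freedom. Arm ratios were tested with limma 3.58.1 on log2 ratios of reads plus 0.5. Alternatives used DESeq2 1.42.0, limma-voom, other scalings and filters, and each library left out. The edgeR fit was tested on simulated data. No libraries were copies of each other: the smallest chi-square per degree of freedom within a diet was 25.9.

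The 3 members, the miRNA lists and the tests were chosen with earlier results of these data known. Besides the members, names were given by a rule: the 6 most like and the 3 most unlike miR-9a-5p, up to 4 most abundant members of the neural and sodium lists, and list members called on 0.01% against 0.4% NaCl. The defining neural markers miR-219a-2-3p and miR-138-5p were added to these, and miR-132-3p and miR-212-3p after their values were seen. Other names of the miR-200 family, and miR-29a-3p and miR-29b-3p, were also added after their values were seen. Intervals on counts cover counting error only, since reads carried no molecular identifiers.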

Additional observations from a re-analysis of the deposited data

Results flagged for a closer look

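Among 18 sets of 5 values checked with Dixon's test, 1 held a library that stood apart. miR-9b-3p was at 54.7 scaled CPM in library 3 on 4% NaCl, where the other libraries of that diet were at 27.98 to 33.5. The gap exceeded Dixon's 95% critical value of 0.71 times the range. About 1 such set in 20 is flagged by chance, and miR-9a-5p was also highest of its diet in that library, at 266 scaled CPM.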

How the results depend on the processing

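The calls of miR-9a-5p and miR-9b-3p on 0.01% against 0.4% or 4% NaCl held under every alternative other than leaving out a library, with log2 fold changes of 1.09 to 1.30 and 0.99 to 1.35 for miR-9a-5p, and 1.08 to 1.29 and 0.93 to 1.32 for miR-9b-3p. Values between 4% and 0.4% NaCl, never called, changed sign. For miR-9a-5p they were -0.013 with DESeq2 size factors and with DESeq2, -0.0071 without the 5 most abundant names, -0.0054 with only the 2 diets compared, and -0.15 without the libraries richest in names of other species. For miR-9a-3p they were 0.061 on library totals and 0.12 with limma-voom, and for miR-9b-3p -0.098 without those libraries. The slope of miR-9b-3p was -0.58 and not called with limma-voom (adjusted p = 0.0565). Names called on 0.01% against 0.4% NaCl fell from 87 to 55 at a mean of 10 CPM, where fewer names were tested, and those called in any diet rose from 85 to 132 with DESeq2. Of the 6 names most like miR-9a-5p, 3 stayed with deviations from the diet means.

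Leaving out each library in turn, names called ranged from 69 to 107 on 0.01% against 0.4% NaCl, 0 to 0 on 4% against 0.4%, 74 to 123 on 0.01% against 4%, 71 to 102 for any diet and 17 to 111 for the slope, lowest without library 1 on 0.01% NaCl. The log2 fold changes on 0.01% against 4% NaCl ranged from 0.99 to 1.37 for miR-9b-3p. Its adjusted p ranged from 0.0053 to 0.061 for any diet, not called in 2 of 15, and its slope from -0.71 to -0.48, not called in 6 of 15. The slope of miR-9a-5p ranged from -0.70 to -0.53. On 4% against 0.4% NaCl the ranges were -0.16 to 0.17 for miR-9a-5p, -0.27 to 0.30 for miR-9a-3p, -0.13 to 0.23 for miR-9b-3p, -0.17 to 0.15 for the arm ratio and -0.24 to 0.10 for miR-9a-3p over miR-9b-3p. For miR-9a-5p over miR-9b-3p on 0.01% against 0.4% NaCl the range was -0.043 to 0.085. The causes were not tested.

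No paired analysis was possible because the labels number no replicates. A mean of 50 reads for both arms left no miR-9a pair, and a mean of 10 CPM left no miR-9a-3p. The reads of miR-9a-3p, 5 to 39 per library, limit what its comparisons can show.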
